A study of Mus musculus with 20 samples.

Results

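Dhrs9 and 8 further genes of retinoid metabolism and signaling (Rdh10, Aldh1a1, Aldh1a2, Aldh1a3, Crabp2, Cyp26b1, Rarb and Rarg) were examined in mouse knee joints after injection of mesenchymal stromal cells (MSC). These 9 genes were chosen by symbol out of the 14793 genes in the expression table, and all 9 had reads in each of the 20 joints. Dhrs9 had been selected because it differed between MSC and control joints in these samples, so that difference is given as a description, and none of the 9 genes was tested in that contrast. The other 8 genes were also chosen with earlier results of these data known, a limit on their tests in the other contrasts. The joints came from male C57BL/6Nci mice. At 12 weeks of age all of them had surgical destabilization of the medial meniscus (DMM), a model of osteoarthritis, in the right knee. No unoperated or sham-operated joint was among the samples. Each of the 4 groups held 5 joints from separate mice. In the control group a needle was inserted without cells. The other joints were injected with 250000 adipose-derived MSC in weeks 3 and 5, and these cells were used without activation (MSC) or after 2 h with the TLR3 agonist pIC (TLR3-MSC) or with 2′3′cGAMP, which activates STING (STING-MSC), both at 10 µg/mL. The injected cells came from pooled donors of the same strain and sex, so RNA of remaining donor cells cannot be told apart from that of the recipient. The joint was taken as a whole, with cartilage, synovium, capsule and subchondral bone, 8 weeks after surgery according to the methods, although the results of the study place RNA extraction 24 h after injection.

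Retinol from the circulation is oxidized to retinal by retinol dehydrogenases such as Rdh10 and Dhrs9, and retinal is oxidized to retinoic acid by the aldehyde dehydrogenases Aldh1a1, Aldh1a2 and Aldh1a3. Crabp2 carries retinoic acid to its nuclear receptors, among them Rarb and Rarg, which bind DNA together with retinoid X receptors, and Cyp26b1 hydroxylates retinoic acid and so starts its removal. Retinoic acid is known for its part in limb and skeletal development and in the differentiation of skin and myeloid cells.

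The promoter sequences of Dhrs9, Rdh12 and Rarb are shown because the first 2 genes had levels that ran together across joints, whereas Rarb is a known target of its own ligand. Each is the run of 250 bases before the annotated start, read 5′ to 3′ on the strand of the gene, from RefSeq on GRCm38.p6, an older build than that of the expression table. Dhrs9 lies at chr2:69380212-69380461 (plus strand), Rdh12 at chr12:79208663-79208912 (plus strand) and Rarb at chr14:16575477-16575726 (minus strand in that build). Capitals mark the half-site of retinoid receptors, for which AGGTCA was searched along with its common variants, namely GGGTCA as the first of them, then AGTTCA as the next and finally GGTTCA, as well as the core GAGGAA of the myeloid factor PU.1, each on both strands.
Dhrs9: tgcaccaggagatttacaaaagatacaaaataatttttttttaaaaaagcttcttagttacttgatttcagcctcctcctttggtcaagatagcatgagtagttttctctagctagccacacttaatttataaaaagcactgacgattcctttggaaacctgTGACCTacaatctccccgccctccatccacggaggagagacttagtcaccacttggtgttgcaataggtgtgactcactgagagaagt
Rdh12: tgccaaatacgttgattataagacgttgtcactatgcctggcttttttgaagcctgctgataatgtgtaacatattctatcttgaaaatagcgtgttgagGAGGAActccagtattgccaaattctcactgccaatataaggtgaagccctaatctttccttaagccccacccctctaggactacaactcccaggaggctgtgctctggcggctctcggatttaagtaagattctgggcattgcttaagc
Rarb: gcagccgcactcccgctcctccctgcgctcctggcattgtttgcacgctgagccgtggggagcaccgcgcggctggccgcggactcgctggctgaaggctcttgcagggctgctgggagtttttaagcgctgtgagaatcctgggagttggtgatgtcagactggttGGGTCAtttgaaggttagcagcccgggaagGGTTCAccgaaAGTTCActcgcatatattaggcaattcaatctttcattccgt
The Dhrs9 promoter held 1 half-site, on the other strand, and no PU.1 core, and the Rdh12 promoter held 1 PU.1 core and no half-site. The Rarb promoter held 3 half-sites, of which the last 2, separated by 5 bases, formed a direct repeat. A half-site was present in 38.6% of the 32851 promoters in the RefSeq table and a PU.1 core in 23.3%, whereas the direct repeat with 5 bases between was present in 0.0883%. Of the 9 genes, 6 had a promoter in that table.

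Normalized read counts were used, and each joint had from 27955496 to 52529973 reads (median 33523061) on the genes of the table. Differences were tested with limma on log2(normalized count + 1), with the false discovery rate (FDR) taken over all genes, and a gene was called where the unadjusted p was 0.05 or less. MSC replicate 5 had 296 genes at 0, compared with 0 to 97 in the other joints. None of the 9 genes was at 0 in any joint. All 92 markers of 11 cell types were in the table, and those of cartilage, bone, synovium, fat, muscle, blood vessel, macrophages, neutrophils and red blood cells were above 0 in every joint, whereas the keratinocyte markers Krt5, Krt14, Krt1 and Krt15 were at 0 in some joints. Per kilobase of transcript, the control mean was highest for Rarg (944) and Aldh1a1 (794), followed by Aldh1a3 (236), Crabp2 (213), Dhrs9 (109), Rdh10 (96.5), Aldh1a2 (78.5), Cyp26b1 (62.03) and Rarb (32.5).

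Dhrs9 (ENSMUSG00000027068, GRCm39 chromosome 2, 69210789 to 69234878) encodes a short-chain dehydrogenase that oxidizes retinol. In control joints its normalized counts were 601, 476, 417, 386 and 463 (469 ± 82.3, SD, n = 5). In MSC joints they were 1161, 793, 1410, 1338 and 961 (1133 ± 257, SD, n = 5). Every MSC joint was above every control joint, as for 0.737% of all genes. Normalized counts were 828, 692, 661, 937 and 633 in TLR3-MSC joints (750 ± 129, SD, n = 5) and 910, 564, 837, 731 and 896 in STING-MSC joints (788 ± 144, SD, n = 5). All 5 TLR3-MSC joints (0.575% of all genes) and 4 of 5 STING-MSC joints were above the highest control joint. The order of the group means was therefore control, TLR3-MSC, STING-MSC and MSC.

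On the log2 scale, the level of Dhrs9 relative to control was higher by 1.26 after MSC, by 0.68 after TLR3-MSC and by 0.74 after STING-MSC, each with a standard error of 0.17 and with the same control joints. Relative to MSC it was lower, with log2 differences of −0.58 in TLR3-MSC joints and −0.51 in STING-MSC joints, whose ranges overlapped that of MSC, with 3 of 5 TLR3-MSC joints and 2 of 5 STING-MSC joints below all MSC joints. These values share samples with the contrast that chose the gene, so no test was applied to them. The pair that does not share its samples, STING-MSC against TLR3-MSC, was tested. Dhrs9 did not differ beyond the spread between joints, with a log2 difference of 0.06 (95% interval −0.292 to 0.422, limma p = 0.707, FDR = 0.935, exact two-sided permutation p = 0.714). Without MSC replicate 5, the log2 difference between MSC and control was 1.31. Dhrs9 overlaps the long noncoding RNA gene Gm36393 on the opposite strand, and whether counting used strand was not stated.

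**Figure D1:**
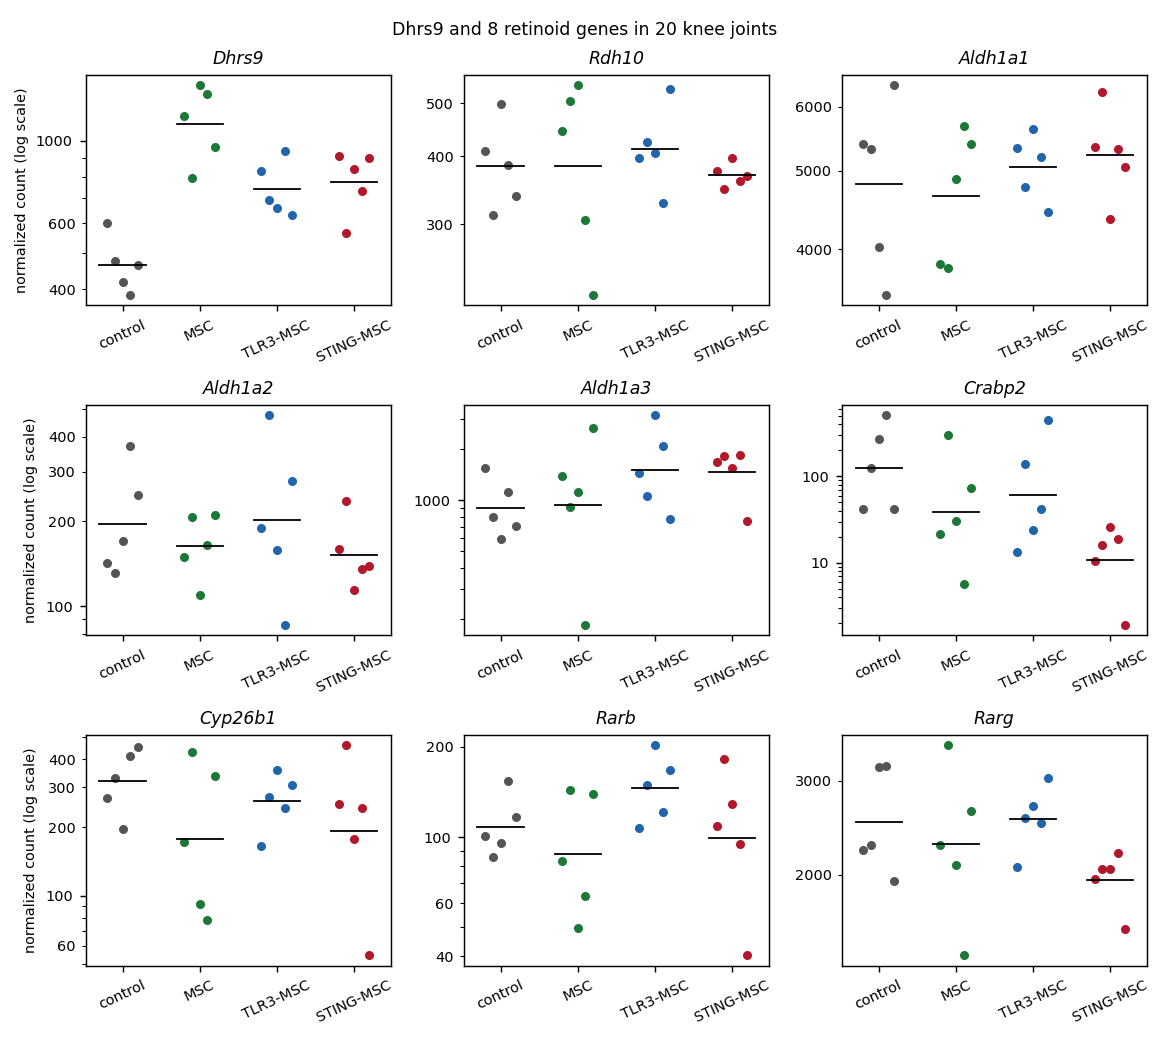
Normalized counts (log scale) of Dhrs9 and the 8 other retinoid genes in the 20 joints, by group (5 joints each). Points are joints and lines are means of the log values. Dhrs9 lay between 386 and 601 in control joints and between 793 and 1410 in MSC joints, and Crabp2 lay between 2 and 26 in STING-MSC joints.

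Neutrophil markers moved with Dhrs9. The summed normalized count of 8 neutrophil markers (S100a8, S100a9, Ly6g, Mpo, Elane, Camp, Ltf and Retnlg) ranged from 315400 to 548420 in control, 451210 to 751400 in MSC, 409010 to 657100 in TLR3-MSC and 452600 to 680530 in STING-MSC joints. All 8 had a mean log2 level above control in each of the other groups, and the mean of the 8 was above control by 0.52, 0.26 and 0.51 on the log2 scale, respectively. Against control, 6 of the 8 markers were called higher in MSC (5.64% of all genes), 0 in TLR3-MSC (2.68%) and 7 in STING-MSC joints (6.54%). None of the 8 passed an FDR of 0.05 in limma, which 0.00676% of all genes passed for MSC and 0% in the other comparisons. The log2 difference of single markers between MSC and control ranged from 0.37 (Mpo) to 0.65 (S100a8). Across the 20 joints Dhrs9 followed the mean of these markers with a Pearson r of 0.81 (Spearman rho 0.74), and with an r of 0.84 after group means were subtracted. The 20 joints are shared by all such correlations, which are given as descriptions. Macrophage markers differed from control by 0.01, 0.05 and 0.04 on the log2 scale in the same order of groups, and their r with Dhrs9 was −0.01. In bulk tissue, a higher number of cells of a type cannot be told apart from more RNA per cell, and the part of the neutrophil markers in the Dhrs9 levels was not tested. Within groups, Dhrs9 also ran with erythroid markers (r = 0.78) and opposite to endothelial (r = −0.84) and synovial fibroblast markers (r = −0.75).

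The genes whose log2 levels were most like those of Dhrs9 were found among 14102 genes with a mean normalized count of at least 20. Over the 20 joints they were Rab11fip1 (r = 0.938), which takes part in vesicle recycling, Clec4e (r = 0.936), a C-type lectin receptor of myeloid cells, the retinal reductase Rdh12 (r = 0.934), Adam8 (r = 0.928), a metalloprotease of leukocytes, and Dgat1 (r = 0.928), an acyltransferase that also esterifies retinol. After group means were subtracted they were Dgat1 (r = 0.949), Rab11fip1 (r = 0.945), Adam8 (r = 0.938), Acpp (r = 0.936), an acid phosphatase, and Rab44 (r = 0.934), a Rab GTPase. Rdh12 was then at rank 21 (r = 0.897). Of the genes named here, Dgat1 and Rdh12 were on the retinoid pathway lists, and neither was among the 8 genes examined with Dhrs9. The lists were chosen with earlier results of these data known, and the ranking used the values that chose Dhrs9. The presence of these genes is therefore only a description. Clec4e ranged from 445 to 692 in control joints and from 764 to 1836 in MSC joints.

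**Figure D2:**
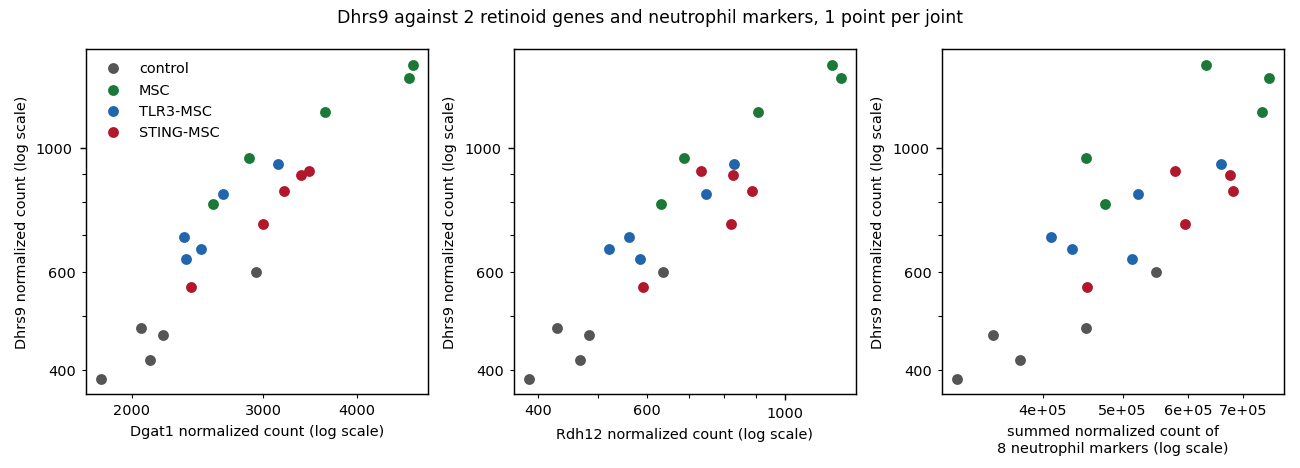
Normalized count of Dhrs9 (vertical, log scale) against that of Dgat1, that of Rdh12 and the summed normalized count of 8 neutrophil markers (horizontal, log scale), with 1 point per joint and colors for the 4 groups. Pearson r over the 20 joints was 0.928 for Dgat1, 0.934 for Rdh12 and 0.81 for the mean log2 level of the markers.

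Rdh12, which reduces retinal, had normalized counts of 637, 430, 467, 387 and 484 in control and 905, 631, 1192, 1232 and 689 in MSC joints. In TLR3-MSC joints they were 746, 562, 520, 828 and 585, and in STING-MSC joints 733, 592, 887, 820 and 826. In MSC and in STING-MSC, 4 of 5 joints were above all control joints. Rdh12 was higher than control by 0.92 on the log2 scale after MSC (standard error 0.19, limma p = 0.000124, FDR = 0.104, exact p = 0.0159) and by 0.69 after STING-MSC (limma p = 0.0019, FDR = 0.29, exact p = 0.0159). The difference of 0.43 for TLR3-MSC (limma p = 0.0373, exact p = 0.0556) lost its call without any one of control replicates 2, 3, 4 and 5 or TLR3-MSC replicates 1 and 4 (limma p up to 0.108). The difference of −0.49 between TLR3-MSC and MSC (limma p = 0.0187, exact p = 0.0794) lost its call without MSC replicate 3 or 4 or TLR3-MSC replicate 3 (limma p up to 0.0645).

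Dgat1 had normalized counts of 2931, 2059, 2114, 1820 and 2202 in control and 3630, 2566, 4749, 4702 and 2868 in MSC joints. In TLR3-MSC joints they were 2649, 2351, 2476, 3141 and 2361, and in STING-MSC joints 3450, 2400, 3199, 2994 and 3364. MSC replicates 3 and 4 were the 2 highest joints for Dgat1 and Rdh12, and also for Dhrs9. Dgat1 was higher than control by 0.71 after MSC (standard error 0.17, limma p = 0.000398, FDR = 0.137, exact p = 0.0238) and by 0.48 after STING-MSC (limma p = 0.0095, FDR = 0.329, exact p = 0.0159), and it was lower in TLR3-MSC than in MSC joints by a log2 difference of −0.48 (limma p = 0.00949, FDR = 0.978, exact p = 0.0635). None of these passed an FDR of 0.05 in limma or edgeR, whereas DESeq2 on the recovered reads passed Dgat1 and Rdh12 for MSC against control, as it did 0.73% of all genes. Since both genes ran with Dhrs9, they are not independent of the choice of that gene. Dgat1 overlaps the protein-coding gene Hsf1 on the opposite strand. Neutrophil markers ran with Rdh12 (r = 0.897) and Dgat1 (r = 0.881) over the 20 joints, and their part in these differences was not tested.

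**Figure D3:**
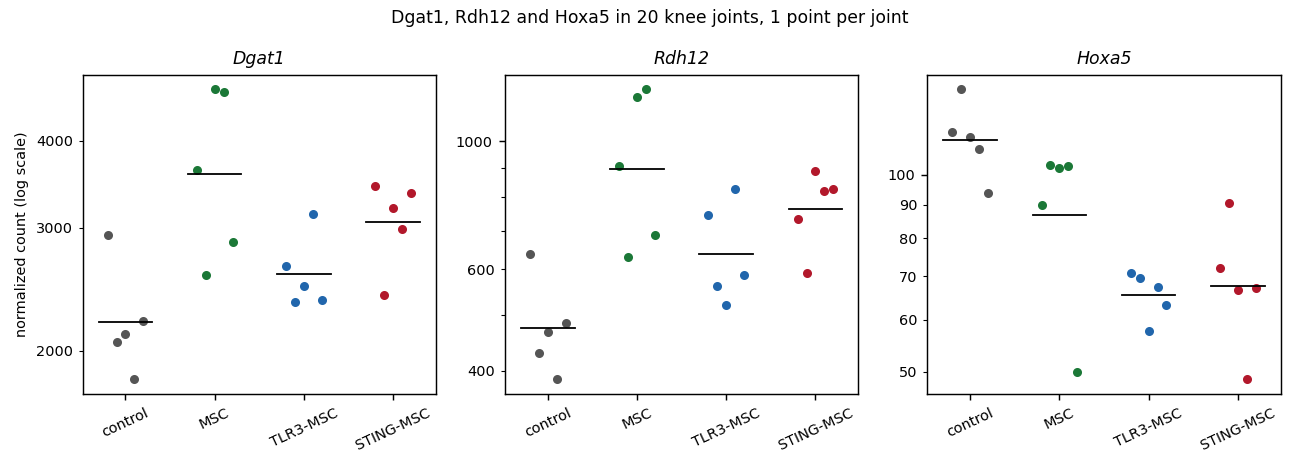
Normalized counts (log scale) of Dgat1, Rdh12 and Hoxa5 in the 20 joints by group. Points are joints and lines are means of the log values. Hoxa5 lay between 94 and 135 in control joints, above all TLR3-MSC joints (58 to 71) and all STING-MSC joints (49 to 91).

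The 8 genes other than Dhrs9 were tested in the 5 pairs of groups other than MSC against control. Since these genes were chosen with earlier results of these data known, their p-values may not be independent of that choice. Of these 40 tests, 2 gave a call, both for Crabp2, and none passed an FDR of 0.05 in limma (smallest FDR 0.291) or edgeR, while DESeq2 passed Crabp2 for STING-MSC against control, as it did 0.575% of all genes. In these 5 pairs 0% of all genes passed that FDR in limma. The share of all genes called in either direction was 3.58% for TLR3-MSC against control, where 0 of the 8 were called, and 12.2% for STING-MSC against control, where 1 of 8 was. It was 4.94% for STING-MSC against MSC (0 of 8), 3.88% for TLR3-MSC against MSC (0 of 8) and 2.57% for STING-MSC against TLR3-MSC (1 of 8).

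Rdh10, which carries out the first oxidation of retinol in the embryo, ranged from 312 to 499 in control joints, 223 to 540 in MSC, 328 to 532 in TLR3-MSC and 349 to 396 in STING-MSC joints. Its group means lay between 370 and 417, and the ranges of all groups overlapped. The log2 differences tested lay between −0.16 and 0.11 with a standard error of 0.20. Aldh1a1, the most abundant of the 3 retinal-oxidizing enzymes, had group means between 4717 and 5272 and log2 differences between 0.05 and 0.17 in the 5 pairs tested (standard error 0.15). For STING-MSC against control the 95% interval of the log2 difference was −0.469 to 0.362 for Rdh10 and −0.195 to 0.438 for Aldh1a1.

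Aldh1a2 had the widest range in TLR3-MSC joints, from 86 to 476, compared with 132 to 369 in control, 109 to 211 in MSC and 115 to 236 in STING-MSC joints. None of its 5 tests gave a call (smallest limma p = 0.277, with an exact p of 0.373). Aldh1a3 had normalized counts of 1544, 795, 591, 1122 and 701 in control joints (951 ± 387, SD, n = 5) and 1451, 1061, 3164, 2071 and 773 in TLR3-MSC joints (1704 ± 950, SD, n = 5). In STING-MSC joints it had 1685, 1832, 1537, 1845 and 750 (1530 ± 454, SD, n = 5), of which 3 were above all control joints. The MSC joints spread over 1380, 918, 1122, 185 and 2666, wider than any other group. The log2 differences from control of 0.75 for TLR3-MSC (limma p = 0.171, exact p = 0.143) and 0.70 for STING-MSC (limma p = 0.199, exact p = 0.0794) did not pass the threshold, with a standard error of 0.53. Adipocyte markers, all 8 of which had a mean above control in each injected group, ran with Aldh1a3 within groups (r = 0.74), and their summed normalized count ranged from 9131 to 31497 in control, 12361 to 31352 in MSC, 20284 to 38584 in TLR3-MSC and 17084 to 34797 in STING-MSC joints. Within groups Aldh1a3 also ran with keratinocyte markers (Pearson r = 0.543, Spearman rho 0.765) and with macrophage markers (Pearson r = 0.565). Its Spearman rho with adipocyte markers was 0.753. The summed count of the keratinocyte markers was highest in TLR3-MSC replicate 4 (23689) and control replicate 1 (6692). The part of any of these marker lists in the Aldh1a3 levels was not tested.

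Crabp2, the carrier of retinoic acid to the nucleus, had normalized counts of 42, 124, 274, 511 and 42 in control joints (199 ± 198, SD, n = 5). In STING-MSC joints they were 10, 16, 26, 19 and 2 (14.6 ± 9.06, SD, n = 5). Every STING-MSC joint was below every control joint. MSC joints had 21, 298, 31, 6 and 74 (86.08 ± 121, SD, n = 5) and TLR3-MSC joints 13, 138, 24, 42 and 446 (133 ± 182, SD, n = 5), so that both groups overlapped control and STING-MSC. The difference between STING-MSC and control was −3.35 on the log2(normalized count + 1) scale (standard error 1.03, limma p = 0.00415, FDR = 0.291), with an exact two-sided permutation p of 0.00794, the smallest that 5 joints against 5 can give. Of all genes, 1.24% were lower in every STING-MSC joint than in every control joint. The call held without any single joint, with log2 differences from −3.74 to −2.82, and DESeq2 gave an FDR of 0.043. STING-MSC was also lower than TLR3-MSC, by a log2 difference of −2.33 (p = 0.0349, FDR = 0.89, exact p = 0.0556). This call was lost without TLR3-MSC replicate 2 or 5 or STING-MSC replicate 1 or 5, with a p of up to 0.121. The difference between MSC and control was −1.65 and was not tested.

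Synovial fibroblast markers moved with Crabp2. The summed normalized count of Prg4, Pdpn, Thy1, Htra1, Cd55, Clic5, Col1a1 and Pdgfra ranged from 324840 to 1083400 in control, 153710 to 862140 in MSC, 356200 to 743980 in TLR3-MSC and 151520 to 351220 in STING-MSC joints. The mean log2 level of the 8 markers in STING-MSC joints differed from that in control by −0.72, with 2 of 8 markers above control, and 1 marker (Htra1, −1.93) was called lower, compared with 5.69% of all genes. Within groups the r with the marker mean was 0.89 for Crabp2 and 0.94 for Rarg. For STING-MSC against control, 5 of 8 endothelial markers were also called lower, with a median log2 difference of −0.52. Their r with Crabp2 within groups was 0.69. The summed count of 10 keratinocyte markers was 558 to 633 in STING-MSC joints (median 596) and 593 to 859 in 4 control joints, whereas control replicate 1 had 6692 (median of the 5 joints 684). None of the 10 was called in this comparison, and 0 of 10 had a mean above control. Their r with Crabp2 was −0.11 within groups and 0.13 over the 20 joints (Spearman rho 0.41). Erythroid markers ran opposite to Crabp2 within groups (r = −0.71). The part of any of these marker lists in the Crabp2 levels was not tested.

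Cyp26b1, which degrades retinoic acid, had group means of 333 in control, 221 in MSC, 269 in TLR3-MSC and 237 in STING-MSC joints. Its ranges were 197 to 454 in control, 78 to 429 in MSC, 165 to 357 in TLR3-MSC and 55 to 460 in STING-MSC joints, and all overlapped. None of its 5 tests gave a call (smallest limma p = 0.168, exact p = 0.23, for STING-MSC against control, with a log2 difference of −0.71 and a standard error of 0.50). Its relative Cyp26a1 was close to the limit of detection, with normalized counts of 13, 10, 18, 23 and 14 in MSC joints and 8, 6, 8, 9 and 6 in TLR3-MSC joints. In STING-MSC joints Cyp26a1 had 3, 6, 11, 4 and 10, and in control joints 11, 14, 13, 3 and 10. No injected group was called against control for Cyp26a1, and the range of each overlapped that of control. The log2 difference from control was 0.67 for MSC (exact two-sided permutation p = 0.143). It was −0.24 for TLR3-MSC (exact two-sided permutation p = 0.563) and −0.53 for STING-MSC (exact two-sided permutation p = 0.294). Cyp26a1 was lower than MSC after STING-MSC, with a log2 difference of −1.21 (standard error 0.41, limma p = 0.00908, FDR = 0.848, exact p = 0.0159). The difference of −0.92 after TLR3-MSC (limma p = 0.0392, FDR = 0.978, exact p = 0.00794) was lost without any one of MSC replicates 3 and 4 or TLR3-MSC replicates 2, 3 and 5 (limma p up to 0.0993), although all 5 TLR3-MSC joints were below all MSC joints, as for 0.311% of all genes.

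Rarb, a retinoic acid receptor whose promoter carries the direct repeat shown above, had normalized counts of 107, 149, 202, 121 and 167 in TLR3-MSC joints (149 ± 37.8, SD, n = 5) and 83, 143, 50, 63 and 139 in MSC joints (95.8 ± 43.2, SD, n = 5). Of the TLR3-MSC joints, 3 were above all MSC joints. The log2 difference of 0.72 (standard error 0.35) did not pass the threshold (limma p = 0.0512, exact p = 0.0714). Control and STING-MSC joints had means of 110 and 111. Rarb overlaps the protein-coding gene Top2b on the opposite strand.

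Rarg, the most abundant retinoic acid receptor per kilobase, had normalized counts of 1963, 2049, 2054, 2194 and 1579 in STING-MSC joints (1968 ± 233, SD, n = 5). In TLR3-MSC joints they were 2067, 2554, 2695, 2497 and 3036 (2570 ± 351, SD, n = 5), and in control joints 2225, 2277, 3186, 3202 and 1945 (2567 ± 586, SD, n = 5). Of the STING-MSC joints, 4 were below all TLR3-MSC joints. The log2 difference of −0.38 between STING-MSC and TLR3-MSC missed the threshold in limma (standard error 0.19, p = 0.0595, FDR = 0.89) and was past it in the exact permutation test (p = 0.0159, unadjusted). Against control the log2 difference was −0.36 (limma p = 0.0728, exact p = 0.0714). Synovial fibroblast markers, whose values are given above, moved with Rarg, and their part was not tested.

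**Figure D4:**
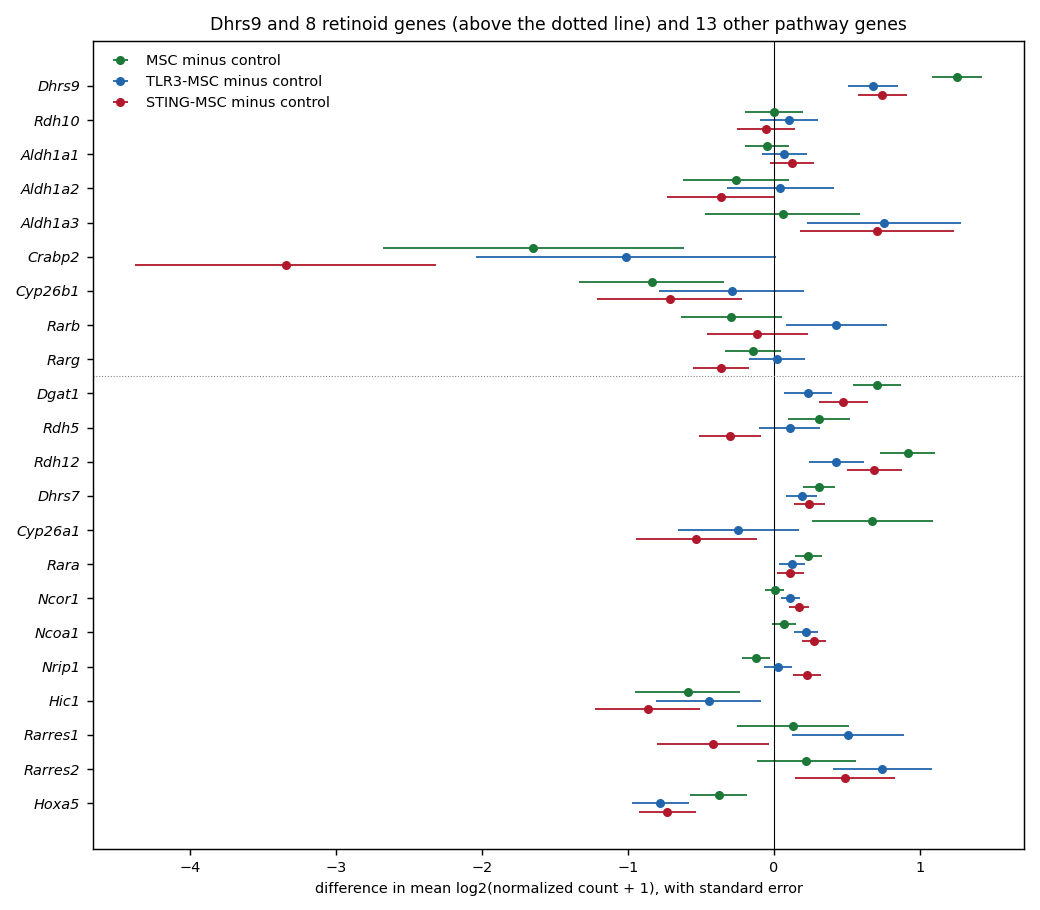
Differences from control in mean log2(normalized count + 1) for each injected group, with bars of 1 standard error, for Dhrs9 and the 8 retinoid genes (above the dotted line) and for the 13 other pathway genes that were called in at least 1 pair of groups. Dhrs9 lay above 0 in all 3 groups (1.26, 0.68 and 0.74), and Crabp2 lay lowest, at −3.35 in STING-MSC.

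The 9 genes fell into different patterns across joints. After group means were subtracted, Cyp26b1 and Rarb ran together (r = 0.92), as did Crabp2 and Rarg (r = 0.88), and all 4 ran with synovial fibroblast markers (r from 0.70 to 0.94). Dhrs9 ran opposite to Rarb (r = −0.74), Cyp26b1 (r = −0.71), Rarg (r = −0.71), Crabp2 (r = −0.68) and Aldh1a2 (r = −0.64). Aldh1a2 ran with endothelial markers (r = 0.80), Rdh10 with osteoclast (r = 0.74) and osteoblast (r = 0.73) markers, and Aldh1a1 opposite to chondrocyte (r = −0.77) and osteoblast (r = −0.75) markers. Each value is over 20 joints.

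**Figure D5:**
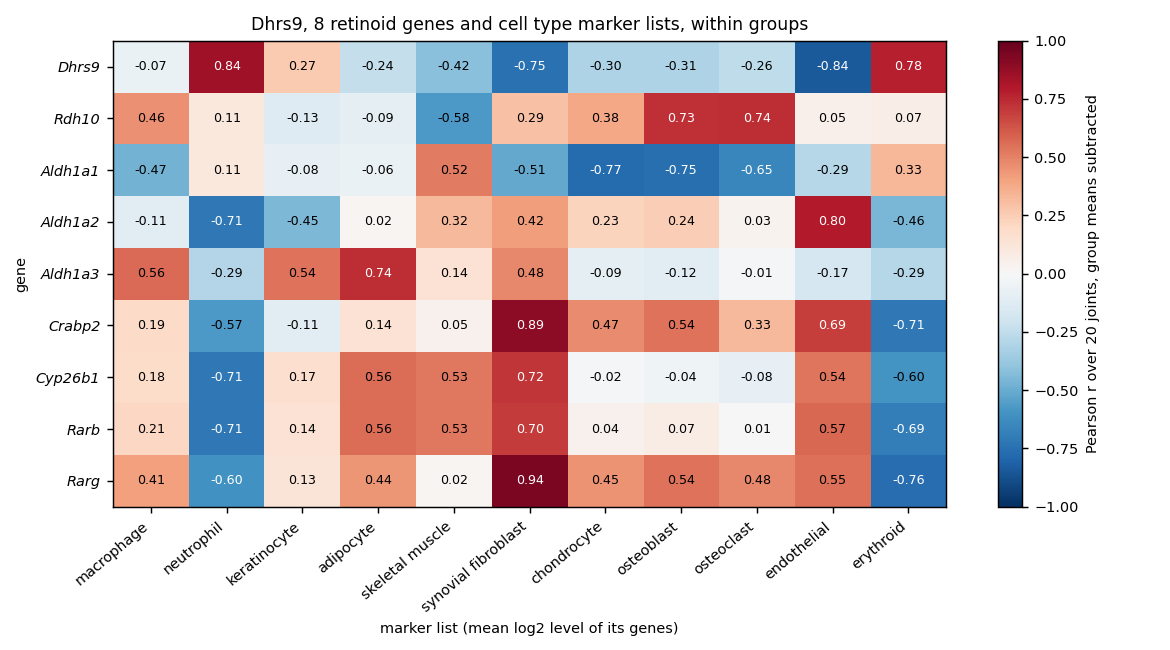
Pearson r over 20 joints, after subtraction of group means, between the log2 level of each gene (rows) and the mean log2 level of each cell type marker list (columns). Dhrs9 had its highest r with neutrophil markers (0.84), Crabp2 (0.89) and Rarg (0.94) with synovial fibroblast markers, Aldh1a3 with adipocyte markers (0.74) and Aldh1a2 with endothelial markers (0.80).

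Of 56 other genes listed for the retinoid pathway, 40 were in the table, and they were tested in all 6 pairs of groups. Of these 40 genes, 13 were called in at least 1 pair and 27 in none. The share of all genes called in at least 1 pair was not computed, so these counts have no background beside them. The same holds for such counts within the lists below. Of the 40 genes, 0 passed an FDR of 0.05 in limma or edgeR. DESeq2 passed Dgat1 and Rdh12 for MSC against control (0.73% of all genes) and Hoxa5 for STING-MSC against control (0.575% of all genes). For MSC against control, 4 were higher and 0 lower, compared with 5.64% of all genes higher and 2.91% lower. Against control, TLR3-MSC had 3 higher and 1 lower (2.68% and 0.906% of all genes), and STING-MSC had 6 higher and 2 lower (6.54% and 5.69% of all genes). The median log2 difference of the 40 genes from control was 0.02, 0.03 and −0.01 in these 3 comparisons, beside −0.04, −0.01 and 0.01 over all genes. STING-MSC against MSC gave 3 higher and 2 lower (2.77% and 2.17% of all genes), TLR3-MSC against MSC 0 higher and 3 lower (1.89% and 1.99%), and STING-MSC against TLR3-MSC 1 higher and 1 lower (0.784% and 1.78%).

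Among 7 genes of uptake, transport and storage, Dgat1 was the only one to pass the threshold in any pair. Per kilobase Dgat1 (1179), the fatty acid binding protein Fabp5 (883) and the retinol carrier Rbp4 (313) had the highest control means of that list. Of 12 other oxidoreductases of retinol and retinal, 3 passed in at least 1 pair, namely Rdh12, Dhrs7 and Rdh5, and the most abundant per kilobase were Dhrs7 (1635), Adh5 (1204) and Dhrs4 (796). Dhrs7, a short-chain dehydrogenase, had a normalized count of 2805 ± 366 (SD, n = 5) in MSC and 2264 ± 314 (SD, n = 5) in control joints. The log2 difference was 0.31 (standard error 0.11, limma p = 0.0109, FDR = 0.38, exact p = 0.0397). Since Dhrs7 ran with Dhrs9 over the 20 joints (r = 0.78), it is not independent of the choice of Dhrs9. The difference of Dhrs7 between STING-MSC and control, 0.24 (limma p = 0.0389, exact p = 0.0635), was lost without control replicate 2, 3, 4 or 5 or STING-MSC replicate 3, 4 or 5 (limma p up to 0.106). Rdh5, which oxidizes cis-retinols, was lower in STING-MSC (45.9 ± 13.3, SD, n = 5) than in MSC joints (68.7 ± 11.4, SD, n = 5), with a log2 difference of −0.61 (limma p = 0.00961, FDR = 0.85, exact p = 0.0159), and it overlaps Bloc1s1 on the same strand. Adh5 and Dhrs4 had log2 differences from control between −0.05 and 0.05 in all 3 groups.

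Of the 4 other nuclear receptors, Rxrb (1006), Rxra (1000) and Rara (444) had the highest control means per kilobase. Rara, the receptor of retinoic acid in myeloid differentiation, was higher in MSC (1747 ± 170, SD, n = 5) than in control joints (1483 ± 142, SD, n = 5), with a log2 difference of 0.24 (limma p = 0.0174, FDR = 0.436, exact p = 0.0397), a call lost without control replicate 5 or MSC replicate 1 (limma p up to 0.0577). Rxra and Rxrb passed in no pair. Of 6 receptor cofactors, 3 were called higher in STING-MSC than in control joints, beside 6.54% of all genes. They were Ncor1, a corepressor, Ncoa1, a coactivator, and Nrip1, which represses liganded receptors. The same 3 were called higher in STING-MSC than in MSC joints, beside 2.77% of all genes. These 2 comparisons share the STING-MSC joints. Ncor1 ranged from 7995 to 8990 in STING-MSC joints, above all control joints (6937 to 7831) and all MSC joints (6818 to 7944), with log2 differences of 0.17 and 0.17. Ncoa1 ranged from 1562 to 1827 in STING-MSC joints, above all control joints (1277 to 1558), with a log2 difference of 0.28 (limma p = 0.00422, FDR = 0.291, exact p = 0.00794). Nrip1 ranged from 1466 to 1947 in STING-MSC joints, above all MSC joints (1264 to 1406), with a log2 difference of 0.35 (limma p = 0.00174, FDR = 0.644, exact p = 0.00794). Of all genes, 0.933% were higher in every STING-MSC than in every control joint and 0.507% in every STING-MSC than in every MSC joint. Per kilobase, the control mean was 773 for Ncoa3, a coactivator, and 730 for Ncor1.

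The other calls among the cofactors kept their direction but missed the threshold when certain joints were left out. The log2 difference of Ncor1 was 0.15 to 0.19 from control and 0.14 to 0.19 from MSC without any single joint. Ncor1 (exact p = 0.00794 in both comparisons) lost its call against control without control replicate 3 or STING-MSC replicate 1 (limma p up to 0.0547) and against MSC without MSC replicate 2 or 4 or STING-MSC replicate 1 (limma p up to 0.0668). Ncoa1 had a log2 difference of 0.22 between TLR3-MSC and control (limma p = 0.0182, exact p = 0.0476), which was lost without TLR3-MSC replicate 3 (limma p = 0.069), and of 0.21 between STING-MSC and MSC (limma p = 0.0253, exact p = 0.0238), which was lost without MSC replicate 2 or 4 or STING-MSC replicate 1 or 3 (limma p up to 0.0697). Nrip1 lost its difference from control (0.23, limma p = 0.0291, exact p = 0.0952) without control replicate 2 or 3 or STING-MSC replicate 1 or 2 (limma p up to 0.108). Its difference between STING-MSC and TLR3-MSC (0.20, limma p = 0.0499, exact p = 0.0714) was lost without TLR3-MSC replicate 2, 3, 4 or 5 or STING-MSC replicate 1, 2, 4 or 5 (limma p up to 0.147).

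Of 10 genes that retinoic acid induces in other tissues, 4 passed the threshold in at least 1 pair. Hoxa5, a homeobox transcription factor, had normalized counts of 116, 135, 114, 110 and 94 in control joints. In TLR3-MSC joints they were 71, 70, 58, 67 and 63, and in STING-MSC joints 72, 91, 67, 49 and 67. Both groups lay below all control joints. The log2 difference was −0.78 for TLR3-MSC (standard error 0.20, limma p = 0.00083, FDR = 1.0) and −0.73 for STING-MSC (p = 0.00143, FDR = 0.289), each with an exact permutation p of 0.00794, and these 2 comparisons share the control joints. Among all genes, 0.25% were lower in every TLR3-MSC joint than in every control joint and 1.24% in every STING-MSC joint. In MSC joints Hoxa5 had 90, 104, 102, 103 and 50, which overlapped control. Hoxa5 overlaps the protein-coding gene Hoxa3 and the long noncoding RNA gene Gm28308 on the same strand, and Hoxaas3 on the opposite strand.

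Hic1, a transcriptional repressor, was lower in STING-MSC (260 ± 77.1, SD, n = 5) than in control joints (477 ± 159, SD, n = 5), with a log2 difference of −0.86 (limma p = 0.0269, FDR = 0.374, exact p = 0.0159), which was lost without control replicate 3 or 4 or STING-MSC replicate 5 (limma p up to 0.0792). Rarres2, which encodes the chemoattractant chemerin, was higher in TLR3-MSC (494 ± 210, SD, n = 5) than in control joints (293 ± 109, SD, n = 5), with a log2 difference of 0.74 (limma p = 0.0415, FDR = 1.0, exact p = 0.0873), which was lost without control replicate 2, 3 or 5 or TLR3-MSC replicate 3 or 4 (limma p up to 0.134). Rarres1 was lower in STING-MSC (81.1 ± 30.7, SD, n = 5) than in TLR3-MSC joints (149 ± 51.3, SD, n = 5), with a log2 difference of −0.93 (limma p = 0.026, FDR = 0.89, exact p = 0.0317), which was lost without TLR3-MSC replicate 3 or 4 or STING-MSC replicate 5 (limma p up to 0.101). Tgm2 (1022), Rarres2 (357) and Rarres1 (79.0) had the highest control means per kilobase of that list, and Tgm2 passed in no pair. Over the 10 genes the median log2 difference from control was −0.42 in MSC, −0.07 in TLR3-MSC and −0.43 in STING-MSC joints. Over all genes it was −0.04, −0.01 and 0.01. For MSC against control 0 of the 10 were called, beside 5.64% of all genes higher and 2.91% lower. The mean log2 level of the synovial fibroblast markers differed from control by −0.51, −0.02 and −0.72 in the same order. The part of these markers in the 10 genes was not tested.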

How the data were processed

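Bulk RNA sequencing of 20 knee joints (4 groups of 5) was analysed. The authors filtered reads, aligned them to GRCm39 with STAR 2.7.3a and counted them per gene with HT-seq on Ensembl in Partek Flow, and DESeq2 is named for their tests. The authors deposited the counts divided by a median-ratio size factor per joint, a normalized signal for 14793 protein-coding genes. Use of strand and a filter on low counts were not given in the sources used here. Whole reads were recovered for 99.8% to 99.9% of values per joint (tolerance 0.1 read), and 100% under 1000. Depth is 27955496 to 52529973 reads per joint, which covers counting error only. The labels of the columns carry a prefix that differs with the group, so whatever it marks cannot be told apart from treatment.

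Groups were taken from the labels. The main test was limma 3.58.1 (trend option, R 4.3.3) on log2(normalized count + 1) over all 20 joints without a block, in place of the count test named by the study, because the values are normalized. A call is an unadjusted p of at most 0.05, and FDR (Benjamini-Hochberg) covers all genes. A minimum mean of 5 removed 0 genes. Exact two-sided permutation tests over all 252 splits of 5 against 5 used SciPy 1.17.1. The log2 scale with an added 1 understates changes of low genes. Replicates differed beyond sampling noise (chi-square of at least 24.1 per gene). The tests were also run on simulated counts with known changes. These counts were drawn gene by gene, so variation that genes of a joint share was not covered.

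Genes and lists were chosen with earlier results of these data known. Named genes were the 9 genes, pathway genes called in any pair or among the 3 most abundant per kilobase of their list (1 of these is not reported here), and the 5 genes most like Dhrs9 by Pearson r over the joints and after subtraction of group means. The genes in the figure of Dgat1, Rdh12 and Hoxa5 and other examples were chosen after their values were seen. Alternatives were pseudocounts of 0.5 and 5, no filter, a filter at a mean of 20, quantile normalization, edgeR 4.0.16 and DESeq2 1.42.0 on whole reads, fits to 2 groups alone, a block for the replicate number, and removal of single joints. Promoters came from RefSeq (GRCm38.p6), and transcript lengths from GENCODE on GRCm39.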

Additional observations from a re-analysis of the deposited data

Results flagged for a closer look

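In STING-MSC joints, Aldh1a3 in replicate 5 stood apart from the other 4 joints, with a normalized count of 750.2 compared with 1537 to 1845. Its gap to the nearest joint was 0.797 of the range of the group, above the critical value of 0.71 for 5 joints. It was the only one of 36 groups examined (9 genes in 4 groups), and chance alone would mark about 1 group in 20. In the same joint the normalized count was 40 for Rarb and 55 for Cyp26b1, the lowest of all 20 joints for both.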

How the results depend on the processing

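No result reversed. The log2 differences of Dhrs9 kept their direction under every alternative, and leaving out single joints gave, against control, 1.17 to 1.38 (MSC), 0.59 to 0.77 (TLR3-MSC) and 0.68 to 0.86 (STING-MSC), against MSC −0.63 to −0.40 (STING-MSC) and −0.70 to −0.49 (TLR3-MSC), and 0.01 to 0.18 for STING-MSC against TLR3-MSC. The number of the 8 other genes called was 1 for STING-MSC against control (3 with only the 2 groups compared, 1 to 2 without single joints), 0 for STING-MSC against MSC (1 with edgeR and 1 with DESeq2, 0 to 2), 0 for TLR3-MSC against MSC (1 with only the 2 groups and 1 with quantile normalization, 0 to 1) and 1 for STING-MSC against TLR3-MSC (2 with only the 2 groups, 2 with quantile normalization and 2 with edgeR, 0 to 2). Of the 40 pathway genes, 2 were called for STING-MSC against TLR3-MSC (1 with quantile normalization, 1 with edgeR, 3 with DESeq2 and 3 with only the 2 groups), and without single joints the count was 3 to 8 (MSC), 2 to 5 (TLR3-MSC) and 4 to 10 (STING-MSC) against control, 3 to 8 (STING-MSC) and 1 to 6 (TLR3-MSC) against MSC, and 0 to 3 for STING-MSC against TLR3-MSC. The causes of these changes were not tested. Of the 28 calls of single genes, 13 held without any joint and under every alternative in which the gene was fitted. At least 1 other setting ended 7 of the calls, and leaving out a joint ended 15. Cyp26a1, whose group means all lay below 20, was not fitted with the filter at a mean of 20. The fit without a filter used the same genes as the main test, since the minimum mean removed 0 genes. Same-numbered joints are different mice, and the mean correlation of their deviations lay between −0.144 and 0.108. Single same-numbered pairs ranged from −0.658 to 0.464, both for MSC against control. The means near 0 cannot show whether the numbers mark any shared handling, which was not tested. With the replicate block the pathway count for STING-MSC against TLR3-MSC was 1, and no count of the 8 genes changed. Few reads limit Cyp26a1 and Crabp2 in STING-MSC joints.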
